A study of Mus musculus with 14 samples.

Results

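The average effect of Rnaseh2b loss on the transcriptome of small intestinal organoids was taken over a background with intact Atg16l1 and a background with Atg16l1 deleted. It is the mean of the Rnaseh2bΔIEC and Atg16l1/Rnaseh2bΔIEC genotype means minus the mean of the WT and Atg16l1ΔIEC genotype means. Of 18781 genes in the deposited table, 12804 had a mean log2 value of at least 3.32 over all 14 libraries, and 5022 of those (39.2%) moved the same way in both backgrounds. The description keeps to these genes. A gene was called where its average effect also had an adjusted p under 0.05, and 1197 genes were.

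Organoids are epithelial cultures grown from intestinal crypts in Matrigel. They were kept in IntestiCult medium without treatment, and their RNA was sequenced as stranded mRNA libraries. All 4 genotypes carry loxP-flanked alleles. WT organoids (4 libraries) are ATG16L1flox/flox_RNaseH2Bflox/flox without Cre. Atg16l1ΔIEC organoids (4 libraries, labelled ATG16L1_KO) are ATG16L1flox/flox_VillinCre+/-. Rnaseh2bΔIEC organoids (2 libraries, labelled RNaseH2bKO) are RNaseH2Bflox/flox_VillinCre+/-, and the study excluded the remaining libraries of this genotype for their read counts. Atg16l1/Rnaseh2bΔIEC organoids (4 libraries, labelled RNaseH2bATG16L1_DKO) are ATG16L1flox/flox_RNaseH2Bflox/flox_VillinCre+/-. The Villin promoter drives Cre in intestinal epithelial cells. Cre is therefore present on both sides of the comparison in the Atg16l1-deleted background, but only in the Rnaseh2bΔIEC libraries in the other one. The age of the mice the cultures came from is not given in the sources used here.

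RNase H2 is a nuclear enzyme of a catalytic subunit, RNASEH2A, and the subunits RNASEH2B and RNASEH2C. It removes single ribonucleotides that DNA polymerases build into the genome and degrades RNA in RNA-DNA hybrids. Without it, ribonucleotides stay in the DNA and can be processed to strand breaks, and dividing cells activate the tumour suppressor p53. p53 is a transcription factor whose targets arrest the cell cycle, repair DNA, start apoptosis and limit p53 itself. ATG16L1 is part of the complex that lipidates LC3 in autophagy.

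Epithelial markers were high in every library, with Epcam between 14.64 and 14.76 and Vil1 between 14.10 and 14.47. Markers of immune cells and fibroblasts were near the bottom of the scale, with Ptprc between 0.47 and 0.53 and Col1a1 between 2.02 and 2.13. By the library names, all WT libraries ran in lane 1, all Atg16l1ΔIEC and Rnaseh2bΔIEC libraries in lane 2, and Atg16l1/Rnaseh2bΔIEC replicates 1 and 2 in lane 2 and replicates 3 and 4 in lane 1. A difference between the lanes enters Rnaseh2bΔIEC minus WT in full, enters Atg16l1/Rnaseh2bΔIEC minus Atg16l1ΔIEC with a factor of -0.5, and enters the average effect with a factor of 0.25. Within a genotype, replicates 1 and 2, and replicates 3 and 4, deviated together from the genotype mean (r from 0.309 to 0.849 across genes in the 6 pairs of the genotypes with 4 libraries). The labels name no such pairs. They are called culture pairs here, and the Rnaseh2bΔIEC libraries were treated as 1 pair, which these data cannot check. Since only Atg16l1/Rnaseh2bΔIEC organoids ran in both lanes, a fit with lane as a covariate takes the lane difference from replicates 1 and 2 against 3 and 4 of that genotype, where lane and culture pair cannot be told apart. The p-values treat all 14 libraries as separate, and main counts are given also with a correlation within the pairs.

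Rnaseh2b (ENSMUSG00000021932, chromosome 14 of GRCm38, 62292589 to 62372992, plus strand), the deleted gene, had log2 values of 8.47, 8.41, 8.58 and 8.70 in WT, 8.71, 8.72, 8.58 and 8.48 in Atg16l1ΔIEC, 7.21 and 7.15 in Rnaseh2bΔIEC, and 7.92, 7.68, 7.79 and 7.84 in Atg16l1/Rnaseh2bΔIEC organoids. All 6 libraries with the deletion lay below all 8 others. The average effect was -1.09 (standard error 0.06, limma adjusted p = 9.8e-07), a 2.12-fold lower level. The fall was -1.36 (standard error 0.09) without and -0.81 (standard error 0.08) with Atg16l1 deletion, and this difference between backgrounds passed the test (0.55, adjusted p = 0.0037). The genes of the other subunits did not pass it. Rnaseh2a had an average effect of -0.00 (95% confidence interval -0.07 to 0.07) and Rnaseh2c one of 0.07 (-0.00 to 0.14).

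Of the 1197 called genes (9.35% of those tested), 656 rose (5.12%) and 541 fell (4.23%). Most changes were small, with a median size of 0.172 on the log2 scale. The size was over 0.5 for 60 genes, 40 of them higher and 20 lower, and over 1 for 8 genes. For 120 of the rises all 6 libraries without Rnaseh2b lay above all 8 others, and for 100 of the falls all 6 lay below. Over all tested genes such separation occurred upward in 0.976% and downward in 0.804%. Separation and call rest on the same values, so separation among called genes is no further support for the calls.

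With a correlation within the culture pairs, 91 genes were called (0.711%), 60 higher and 31 lower, and all 91 are among the 1197. With lane as a covariate 1008 genes were called (7.87%), of which 744 are among the 1197. Without Rnaseh2bΔIEC replicate 1 the count was 285, and without replicate 2 it was 451. A core of 66 genes, 39 higher and 27 lower, was called under 10 other settings and without each library in turn. The changes of the filter, the fit to pair means and the tests within each background were set aside for this.

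Rnaseh2bΔIEC against WT gave 3424 genes past the threshold (26.7%), Atg16l1/Rnaseh2bΔIEC against Atg16l1ΔIEC gave 3218 (25.1%), and 179 genes (1.4%) passed in both with the same direction, 93 higher and 86 lower. Across the 12804 genes, which are not independent, Pearson's r between the differences in the backgrounds was -0.371 and Spearman's rho was -0.331. The contrasts share no library, but the lane enters them with opposite sign. With lane as a covariate Pearson's r was -0.514 and Spearman's rho was -0.526, and 30.9% of the genes moved the same way. The lane estimate of that fit also enters the contrasts with opposite sign, and the cause of the negative correlation was not tested. The effect differed between backgrounds for 4499 genes (35.1%), among them 343 of the called genes (28.7%), which therefore moved the same way but by unequal amounts. With lane as a covariate the effect differed for 75 of the 1008 genes called there. With a correlation within pairs it differed for 31 of the 91 called there.

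**Figure D1:**
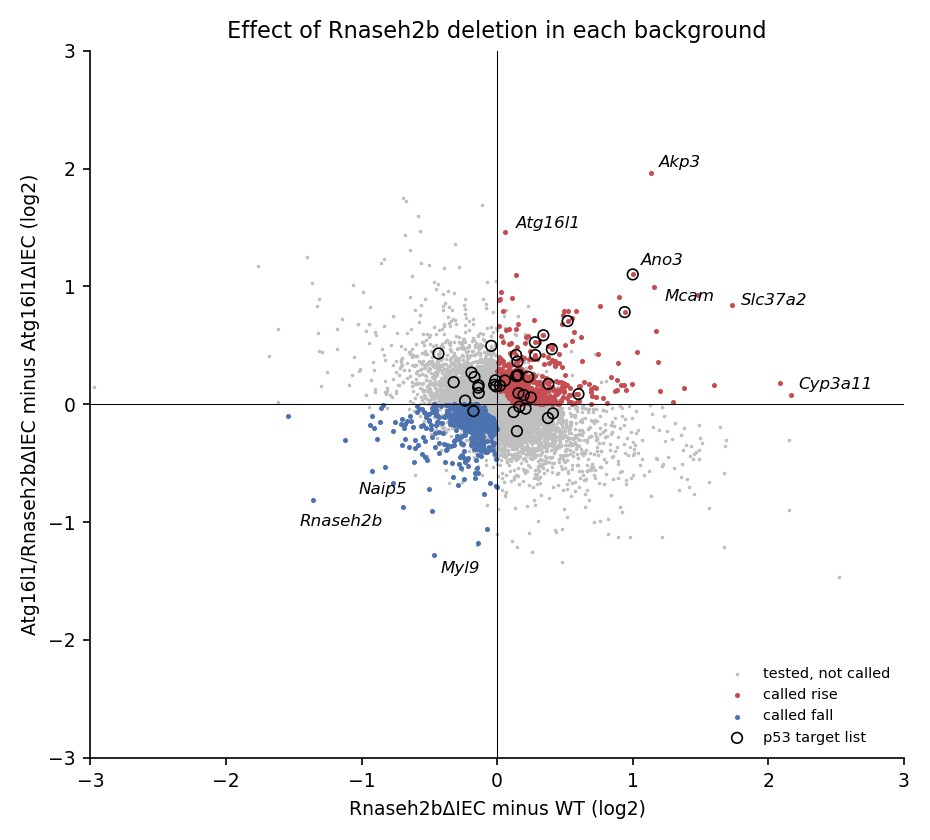
Each point is 1 of the 12804 tested genes; the x axis is the log2 difference of Rnaseh2bΔIEC minus WT, and the y axis is that of Atg16l1/Rnaseh2bΔIEC minus Atg16l1ΔIEC. Called rises (656, red) and falls (541, blue) lie by definition in the upper right and lower left areas, the cloud of tested genes (grey) slopes from upper left to lower right (r = -0.371), and several p53 list members (rings), Ano3 among them, lie far out in the upper right.

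The largest rises common to both backgrounds were of genes with unlike functions. Ranked by the smaller of the differences in the backgrounds, the first 12 were Akp3, Ano3, Mcam, Sult6b2, Crip2, Slc37a2, Ptp4a3, Capn11, S100g, Ccp110, Lbh and Stox2, with average effects from 0.59 to 1.55. In each of them all 6 libraries without Rnaseh2b lay above all 8 others, and all 12 were called with lane as a covariate and with a correlation within pairs.

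Crip2 (ENSMUSG00000006356, chromosome 12, 113140236 to 113145506), which encodes a protein with LIM domains, had log2 values of 5.89, 5.85, 6.15 and 6.06 in WT, 5.79, 6.0, 5.90 and 5.75 in Atg16l1ΔIEC, 6.86 and 6.92 in Rnaseh2bΔIEC, and 6.64, 6.80, 6.88 and 6.74 in Atg16l1/Rnaseh2bΔIEC organoids. The libraries formed a low and a high group with a gap wider than the spread within either. The rise was 0.90 (standard error 0.10) in the background with Atg16l1 and 0.91 (standard error 0.08) in the background without it, and the average effect was 0.90 (standard error 0.06, limma adjusted p = 2.7e-06).

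Mcam (ENSMUSG00000032135, chromosome 9, 44134469 to 44142727), the gene of the adhesion molecule CD146, had values of 6.68, 6.53, 6.64 and 6.78 in WT, 6.50, 6.91, 6.53 and 6.51 in Atg16l1ΔIEC, 7.79 and 7.84 in Rnaseh2bΔIEC, and 7.73, 7.44, 7.85 and 7.42 in Atg16l1/Rnaseh2bΔIEC organoids. Here too both genotypes without Rnaseh2b were high and the others low. Its average effect was 1.08 (standard error 0.09, adjusted p = 1.1e-05), made up of 1.16 and 1.0.

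Slc37a2 (ENSMUSG00000032122, chromosome 9, 37227585 to 37255738), a sugar phosphate exchanger of the endoplasmic reticulum, had values of 6.41, 6.23, 5.98 and 6.0 in WT, 6.36, 6.30, 6.18 and 6.16 in Atg16l1ΔIEC, 8.02 and 7.77 in Rnaseh2bΔIEC, and 7.09, 7.27, 7.03 and 6.98 in Atg16l1/Rnaseh2bΔIEC organoids. It rose in both backgrounds, and the highest libraries were those of Rnaseh2bΔIEC. The rise of 1.74 (standard error 0.12) without Atg16l1 deletion was larger than the 0.84 (standard error 0.10) with it (difference -0.90, adjusted p = 0.001). S100g, which encodes the calcium-binding protein calbindin-D9k of the absorptive epithelium, rose by 1.17 and 0.62, and this difference passed as well (adjusted p = 0.018).

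Akp3 (ENSMUSG00000036500, chromosome 1, 87124973 to 87127912), an intestinal alkaline phosphatase, had the largest average effect of all called genes, 1.55 (standard error 0.23, adjusted p = 0.0015). Its values were 8.97, 8.70, 7.48 and 7.57 in WT, 8.16, 8.06, 8.07 and 8.02 in Atg16l1ΔIEC, 9.41 and 9.20 in Rnaseh2bΔIEC, and 9.58, 9.82, 10.50 and 10.27 in Atg16l1/Rnaseh2bΔIEC organoids. The WT culture pairs differed widely, and the higher pair came close to the lowest library without Rnaseh2b. Akp3 lies 0.628 Mb and the related Alpi 0.654 Mb from Atg16l1, which itself had 9.43, 9.54, 9.44 and 9.44 in WT, 6.87, 7.35, 6.75 and 6.74 in Atg16l1ΔIEC, 9.52 and 9.53 in Rnaseh2bΔIEC, and 8.37, 8.14, 8.57 and 8.47 in Atg16l1/Rnaseh2bΔIEC organoids. Atg16l1 was thus called as a rise (0.76, adjusted p = 0.00043) through the higher residual level in Atg16l1/Rnaseh2bΔIEC than in Atg16l1ΔIEC organoids (1.46), with 0.06 (95% confidence interval -0.26 to 0.38) between Rnaseh2bΔIEC and WT. Of 23 tested genes within 1 Mb of Atg16l1, 6 were called (26.1%, beside 9.35% of all genes), 2 as rises and 4 as falls, and within 10 Mb of Rnaseh2b 13 of 154 (8.44%) were. The part of this neighbourhood in the result for Akp3 was not tested.

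For the other leading rises no difference between backgrounds was detected. Sult6b2, a cytosolic sulfotransferase, rose by 1.20 on average (2.30-fold, adjusted p = 0.00018), with 1.48 and 0.92 in the backgrounds (difference adjusted p = 0.12). Capn11, a calpain protease, rose by 0.80, Lbh, a transcriptional cofactor, by 0.59 and Stox2, a winged-helix protein, by 0.59. Ccp110 (ENSMUSG00000033904), whose product caps the distal end of centrioles, had values between 7.86 and 8.11 in the 8 libraries with Rnaseh2b, and of 8.55 and 8.61 in Rnaseh2bΔIEC and 8.54, 8.58, 8.86 and 8.79 in Atg16l1/Rnaseh2bΔIEC organoids. It rose by 0.68 (standard error 0.06, adjusted p = 1.1e-05), the groups were apart, and the rises of 0.58 and 0.79 did not differ detectably (difference 0.21, adjusted p = 0.16).

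**Figure D2:**
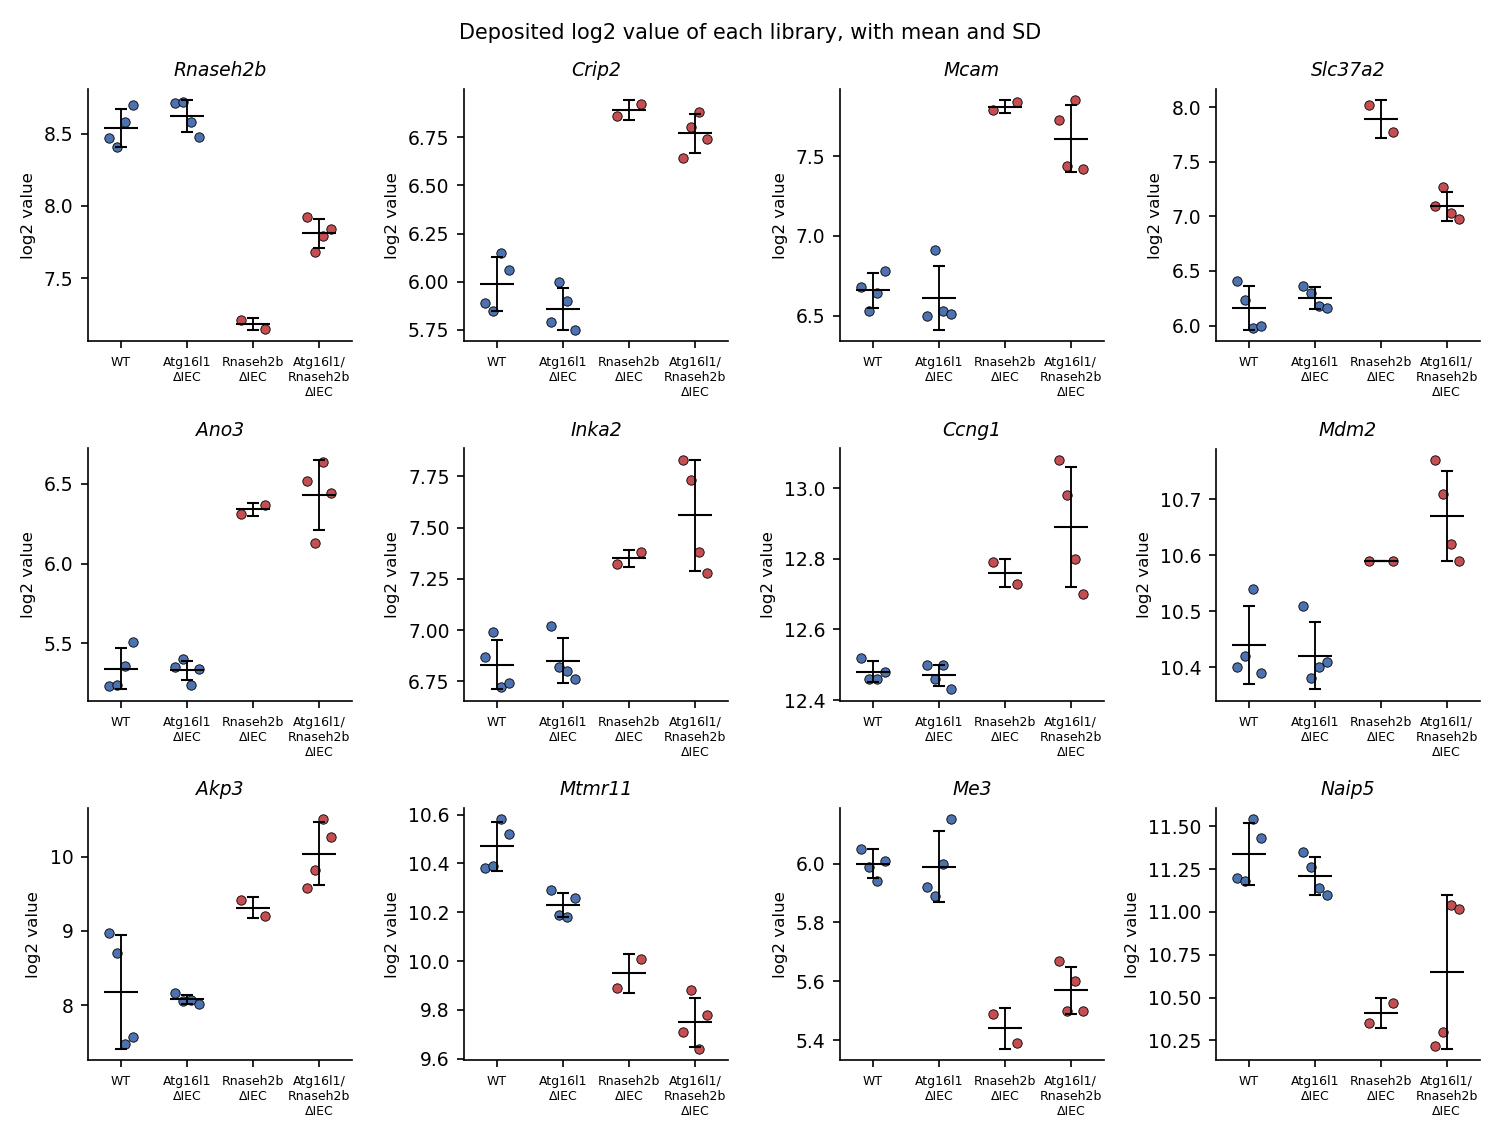
Deposited log2 value (y axis, a separate scale in each panel) of every library in the 4 genotypes for 12 genes, with genotypes that keep Rnaseh2b in blue, those that lack it in red, and the mean and SD as horizontal lines and bars. Red and blue points do not overlap in any panel, and the Atg16l1/Rnaseh2bΔIEC points of Ccng1, Inka2 and Naip5 split into replicates 1 and 2 and replicates 3 and 4.

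Among the falls, the first 12 by the same ranking, which leaves out Rnaseh2b itself, were Pm20d1, Emid1, Naip5, Col26a1, Tifa, Mgll, Itih5, Mtmr11, Myl9, Bcl2l15, Me3 and Slc5a8, with average effects from -0.87 to -0.42. They were less even than the rises. In 6 of the 12 all libraries without Rnaseh2b lay below all others, 9 were called with lane as a covariate, and only Naip5, Mtmr11 and Me3 were called with a correlation within pairs.

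Mtmr11 (ENSMUSG00000045934, chromosome 3, 96162004 to 96171718), a myotubularin-related protein, had values of 10.38, 10.39, 10.58 and 10.52 in WT, 10.29, 10.19, 10.18 and 10.26 in Atg16l1ΔIEC, 9.89 and 10.01 in Rnaseh2bΔIEC, and 9.71, 9.88, 9.64 and 9.78 in Atg16l1/Rnaseh2bΔIEC organoids. Each genotype without Rnaseh2b lay below its own control, and the average effect was -0.50 (standard error 0.05, adjusted p = 4.1e-05), from -0.52 and -0.48. Me3, the mitochondrial NADP-dependent malic enzyme, had values between 5.89 and 6.15 in the 8 libraries with Rnaseh2b and between 5.39 and 5.67 in the 6 without it. Its average effect was -0.49 (standard error 0.05, adjusted p = 6.2e-05).

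Naip5 (ENSMUSG00000071203, chromosome 13, 100211739 to 100246323), a cytosolic sensor of bacterial flagellin, had values of 11.20, 11.18, 11.54 and 11.43 in WT, 11.35, 11.26, 11.14 and 11.10 in Atg16l1ΔIEC, 10.35 and 10.47 in Rnaseh2bΔIEC, and 10.22, 10.30, 11.04 and 11.02 in Atg16l1/Rnaseh2bΔIEC organoids. The groups did not overlap, but Atg16l1/Rnaseh2bΔIEC replicates 3 and 4 (lane 1) came close to the controls. Its average effect amounted to -0.74 (standard error 0.13, limma adjusted p = 0.004), or -0.55 once lane was a covariate. The latter is made up of -0.15 without and -0.95 with Atg16l1 deletion, beside -0.92 and -0.57 when lane was left out. Pm20d1, a secreted enzyme that makes N-acyl amino acids, had the same split, with 9.37 and 9.55 against 10.56 and 10.64 in Atg16l1/Rnaseh2bΔIEC organoids. With lane as a covariate its differences in the backgrounds were 0.45 and -1.44, so it no longer moved the same way, and neither did Col26a1 or Itih5. Tifa, the adaptor of the sugar sensor ALPK1, split in the other direction, with 8.92 and 8.62 against 7.91 and 7.82. Myl9, a myosin regulatory light chain, had an average effect of -0.87 from -0.47 and -1.28.

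Every p53 target that was called rose. Of a list of 40 targets 39 were tested, and 18 rose (46.2%, beside 5.12% of all genes) while 0 fell by limma, with 20 higher and 0 lower at an unadjusted p under 0.05. The signs agreed between backgrounds for 21 of the 39, and 6 had an average effect below 0. The median average effect of the 39 was 0.13, beside 0.002 over all genes, and the medians were 0.15 without and 0.19 with Atg16l1 deletion. For 12 of them all 6 libraries without Rnaseh2b lay above all 8 others. The list holds Ano3, Inka2, Ddit4l, Zfp365, Ccng1 and Mdm2, which the study displayed or measured. Their place on the list is no independent evidence of the direction. Of the other 33 genes 12 rose (36.4%) and 0 fell, with a median of 0.10. They are no independent evidence either, since the whole list was written with earlier results of these data known. With lane as a covariate 12 list members rose, with a correlation within pairs 8 did (Ano3, Ptp4a3, Inka2, Phlda3, Zfp365, Ccng1, Bax and Gtse1), and 9 passed in each background separately. Without Rnaseh2bΔIEC replicate 1 the count was 10.

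Since p53 acts by binding DNA, the promoter windows of the genes were searched for the p53 response element, a pair of decamers without spacer, of 20 bases, with intact cores and at most 2 mismatches on either strand. The windows run from 250 bases before to 50 after the RefSeq start, on GRCm38.p6. Among 10043 tested genes with a window 0.478% held such an element, among 528 called rises 1.7% (9 genes) and among 413 called falls 0.969% (4 genes). Of the 9 rises with an element, 4 are on the p53 list (Ccng1, Ckap2, Gtse1 and Zfp365), which had 14 risen members with a window. The list was written with earlier results of these data known, so the share among rises is not independent of it. Of the 30 p53 list members with a window 5 held an element. The stretches below, 5′ to 3′ on the strand of the gene, show the element in capitals with 20 bases on each side. They are given for 3 risen list members, for Stox2 and Rps27l, which rose and are not on the list, and for Cdkn1a, a target that did not pass the test. Rps27l was chosen after its value was seen.
Ccng1: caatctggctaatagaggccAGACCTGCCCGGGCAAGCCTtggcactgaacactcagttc
Zfp365: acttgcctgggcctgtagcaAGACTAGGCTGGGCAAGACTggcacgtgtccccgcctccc
Ckap2: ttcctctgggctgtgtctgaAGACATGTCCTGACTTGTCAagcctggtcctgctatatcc
Stox2: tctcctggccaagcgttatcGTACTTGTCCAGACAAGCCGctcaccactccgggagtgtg
Rps27l: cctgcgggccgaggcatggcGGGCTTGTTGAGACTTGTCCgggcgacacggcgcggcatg
Cdkn1a: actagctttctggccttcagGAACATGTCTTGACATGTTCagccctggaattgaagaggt

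The stretches lie at chr11:40755442-40755501 (minus strand), chr10:67912686-67912745 (minus), chr8:22185983-22186042 (minus), chr8:47352463-47352522 (minus), chr9:66946276-66946335 (plus) and chr17:29090908-29090967 (plus), in this order. The element has 1 mismatch in Ccng1, Rps27l and Cdkn1a and 2 in the others, and all 6 lie before the RefSeq start of their window. For Stox2 this start is internal, since the annotated gene runs from 47180048 to 47446362 on the minus strand and contains the stretch. Gtse1, a further risen list member, holds one that spans the start. A match of letters is not a measured site, and elements outside the window were not searched.

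Ccng1 (ENSMUSG00000020326, chromosome 11, 40748552 to 40755311), the gene of cyclin G1, had values of 12.52, 12.46, 12.46 and 12.48 in WT, 12.50, 12.46, 12.50 and 12.43 in Atg16l1ΔIEC, 12.79 and 12.73 in Rnaseh2bΔIEC, and 13.08, 12.98, 12.80 and 12.70 in Atg16l1/Rnaseh2bΔIEC organoids. The 8 control libraries lay within 0.1 of each other and below all 6 others. Ccng1 rose by 0.35 (standard error 0.05, adjusted p = 0.0012), a 1.27-fold rise. With lane as a covariate the average effect was 0.28 (adjusted p = 7.6e-05), but Rnaseh2bΔIEC then differed from WT by -0.00, and among lane 2 libraries alone Atg16l1/Rnaseh2bΔIEC organoids lay 0.56 above Atg16l1ΔIEC organoids.

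Mdm2 (ENSMUSG00000020184), the ubiquitin ligase that degrades p53, rose by a small amount. Its values lay between 10.38 and 10.54 in the 8 control libraries, at 10.59 in both Rnaseh2bΔIEC libraries and between 10.59 and 10.77 in the Atg16l1/Rnaseh2bΔIEC libraries, so the groups did not overlap. It rose by 0.20 (standard error 0.04, adjusted p = 0.004), or by 0.17 once lane was a covariate, from 0.02 without and 0.32 with Atg16l1 deletion. It did not pass with a correlation within pairs (adjusted p = 0.13).

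The list members outside the naming rule, from Phlda3 to Plk2 in what follows, were chosen after their values were seen. Phlda3 (ENSMUSG00000041801, chromosome 1, 135766119 to 135769136), an inhibitor of AKT, had values of 9.06, 8.98, 8.95 and 9.07 in WT, 8.83, 8.94, 8.89 and 8.94 in Atg16l1ΔIEC, 9.39 and 9.32 in Rnaseh2bΔIEC, and 9.65, 9.49, 9.44 and 9.36 in Atg16l1/Rnaseh2bΔIEC organoids. All libraries without Rnaseh2b were higher than all with it. It rose by 0.46 (standard error 0.05, adjusted p = 6.2e-05). Ptp4a3, a phosphatase, had the second largest effect on the list, 0.86 (standard error 0.09, adjusted p = 0.00016), with values between 7.43 and 8.04 in the controls and between 8.54 and 8.76 in the libraries without Rnaseh2b.

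Of the genes the study displayed for these organoids, Ano3 (ENSMUSG00000074968), an anoctamin, had the largest effect, 1.05 (standard error 0.07, adjusted p = 3.3e-06), from 1.0 and 1.10. Inka2, an inhibitor of the kinase PAK4, rose by 0.61 (standard error 0.09, adjusted p = 0.0012). Its Atg16l1/Rnaseh2bΔIEC values were 7.83 and 7.73 in lane 2 and 7.38 and 7.28 in lane 1, and with lane as a covariate it rose by 0.50, from 0.07 without and 0.93 with Atg16l1 deletion. Ddit4l, an inhibitor of mTORC1 signalling, rose by 0.44 (standard error 0.06, adjusted p = 0.0011) and did not pass with a correlation within pairs (adjusted p = 0.061). Zfp365 rose by 0.40, more with than without Atg16l1 deletion (0.53 and 0.28, difference adjusted p = 0.025).

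The remaining risen targets fall into known arms of the response. Bax, the pore-forming apoptosis effector, rose by 0.28, the nuclease gene Aen by 0.20, and Ei24 by 0.13. Zmat3, an RNA-binding target, rose by 0.23, the repair nuclease gene Ercc5 by 0.13, the glutaminase gene Gls2 by 0.19 and Trp53inp1 by 0.34. Gtse1 and Ckap2, which act on microtubules, rose by 0.28 and 0.09, and Dyrk3 by 0.26. The difference between backgrounds passed for 5 of the 18, larger with Atg16l1 deletion for Zfp365, Gtse1 and Phlda3 and smaller for Bax and Trp53inp1.

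The other 21 list members did not pass or moved in opposite ways, and 13 of them differed between backgrounds. Cdkn1a (ENSMUSG00000023067), which encodes the cell cycle inhibitor p21, had values of 12.93, 12.85, 12.83 and 12.80 in WT, 12.35, 12.44, 12.67 and 12.64 in Atg16l1ΔIEC, 12.82 and 12.86 in Rnaseh2bΔIEC, and 12.47, 12.78, 12.85 and 12.82 in Atg16l1/Rnaseh2bΔIEC organoids. The genotypes overlap, with an average effect of 0.10 (95% confidence interval -0.05 to 0.24, adjusted p = 0.35). Gdf15, a secreted stress factor, was 0.43 lower in Rnaseh2bΔIEC than in WT organoids and 0.43 higher in Atg16l1/Rnaseh2bΔIEC than in Atg16l1ΔIEC organoids, and the difference between these passed the test (adjusted p = 0.001). Plk2 had -0.04 in the first comparison and 0.50 in the second (difference adjusted p = 0.036). Trp53 itself had an average effect of 0.03 (95% confidence interval -0.05 to 0.11, adjusted p = 0.66).

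**Figure D3:**
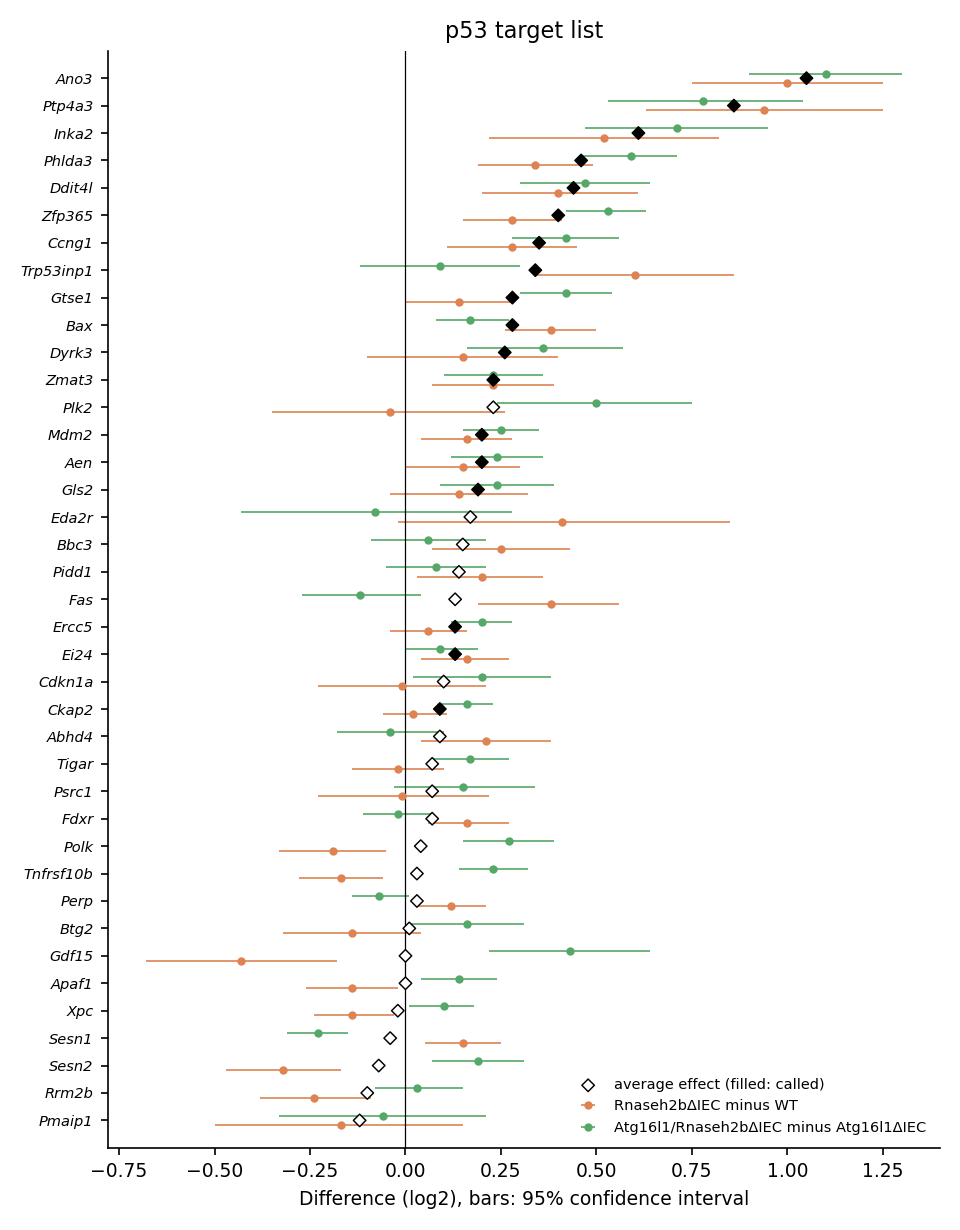
For the 39 tested p53 list members, ordered by average effect, the log2 difference in each background with its 95% confidence interval (orange without, green with Atg16l1 deletion) and the average effect (diamonds, filled where called). The 18 filled diamonds lie between 0.09 and 1.05, and lower in the plot the orange and green points of genes such as Gdf15 lie on opposite sides of 0.

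Few genes that repair or tolerate ribonucleotides in DNA were called. Of 16 tested, Pcna and Rnaseh1 rose (12.5%, beside 5.12%) and Rnaseh2b fell. Rnaseh1, which degrades RNA-DNA hybrids in the nucleus and mitochondria, rose by 0.11 (standard error 0.03, adjusted p = 0.047), with 0.17 and 0.06 in the backgrounds. Top1, the topoisomerase that cuts DNA at ribonucleotides, had an average effect of 0.02, with -0.17 without Atg16l1 deletion and 0.22 with it (difference adjusted p = 0.0012). Of 29 tested genes of DNA damage signalling and repair Xrcc5 rose (0.19) and Wrn fell (-0.10), each 3.45% of the list, beside 5.12% and 4.23% of all genes. With a correlation within pairs neither they nor Pcna and Rnaseh1 passed (adjusted p from 0.26 to 0.44).

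DNA replication genes mostly lay above 0. Of 33 tested genes 7 rose (21.2%, beside 5.12%), 0 fell and 32 had an average effect above 0, with a median of 0.11. With a correlation within pairs none of the 7 passed, Rrm2 coming nearest (adjusted p = 0.057). Rrm2, the small subunit of ribonucleotide reductase, had values of 11.22, 11.14, 11.14 and 11.14 in WT, 11.37, 11.29, 11.39 and 11.28 in Atg16l1ΔIEC, 11.51 and 11.46 in Rnaseh2bΔIEC, and 11.46, 11.42, 11.41 and 11.42 in Atg16l1/Rnaseh2bΔIEC organoids. It rose by 0.21 (standard error 0.03, adjusted p = 0.00036), with all libraries without Rnaseh2b above all others, by 0.32 without and 0.10 with Atg16l1 deletion. Ccne1, the gene of cyclin E1, rose by 0.30, and the helicase subunit genes Mcm2 and Mcm3 by 0.19 each. At an unadjusted p under 0.05 18 were higher and 0 lower. With lane as a covariate 3 of the group rose.

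Mitosis genes mostly lay below 0, 25 of 30 by average effect. By limma 0 rose (0 also at an unadjusted p under 0.05) and 4 fell (13.3%, beside 4.23%), namely Nusap1 (-0.20), Prc1 (-0.11), Ccnb2 (-0.11) and Aurkb (-0.08), which act on spindle, midzone and chromosomes. With a correlation within pairs none of the 4 passed (adjusted p from 0.061 to 0.42). The group's median was -0.05, from -0.14 without and 0.03 with Atg16l1 deletion, and the effect differed between backgrounds for 16 of the 30.

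Ribosomal protein genes shifted by small amounts. Of 40 tested, 11 fell (27.5%, beside 4.23%) and 2 rose, and 32 moved the same way in both backgrounds. None of the 13 passed with a correlation within pairs. The falls were mostly of small subunit genes, 9 of 17 Rps genes against 2 of 23 Rpl genes, and this difference was not tested. The medians were -0.10 for Rps and -0.06 for Rpl genes. Ribosomal protein genes have many processed copies in the genome, which the read counting could have split.

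Genes of the ATF4 response and of amino acid supply, the set that cells induce when amino acids run short, had an average effect below 0 in all 23 tested members, and 6 fell (26.1%, beside 4.23%), Aldh1l2, Psat1, Cth, Aars, Nars and Atf4. None of the 6 passed with a correlation within pairs (adjusted p = 0.064 for Aldh1l2). The list's medians were unequal, -0.34 without and 0.00 with Atg16l1 deletion. Aldh1l2, a mitochondrial folate enzyme, had values of 11.22, 11.23, 11.41 and 11.27 in WT, 11.27, 11.29, 11.14 and 11.22 in Atg16l1ΔIEC, 10.34 and 10.34 in Rnaseh2bΔIEC, and 10.56, 10.85, 11.42 and 11.40 in Atg16l1/Rnaseh2bΔIEC organoids. Both Rnaseh2bΔIEC libraries were low, and of Atg16l1/Rnaseh2bΔIEC only replicates 1 and 2, the lane 2 libraries, were. The average effect was -0.56 (standard error 0.12, adjusted p = 0.01) and differed between backgrounds (0.76, adjusted p = 0.023). With lane as a covariate the effects were -0.23 without and -0.53 with Atg16l1 deletion.

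Interferon-stimulated genes, which loss of RNase H2 raises in other cells through sensing of nucleic acids, were with 1 exception not called. Of 23 tested 1 rose (4.35%, beside 5.12%), Cmpk2 (0.19, adjusted p = 0.012, and 0.19 with a correlation within pairs), and it did so by 0.36 without and 0.02 with Atg16l1 deletion (difference adjusted p = 0.007). Isg15 had an average effect of 0.16 (95% confidence interval -0.15 to 0.46) and Cxcl10 one of 0.13 (-0.23 to 0.49), and neither passed. With lane as a covariate these values were 0.35 and 0.37, with opposite signs in the backgrounds. Of 19 tested epithelial chemokines and NF-kB targets, Icam1 rose (0.39) and Nos2, inducible nitric oxide synthase, fell (-0.71). Each is 5.26% of the list, beside 5.12% and 4.23% of all genes, and 15 of the 19 lay below 0 by average effect. Icam1 changed by 0.73 without and 0.06 with Atg16l1 deletion (95% confidence interval -0.06 to 0.19 with it). Nos2 changed by -1.12 without and -0.30 with it.

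Markers of the cell types of the crypt and villus often had opposite signs in the backgrounds. In bulk samples fewer cells of a type and less RNA per cell cannot be told apart. Of 28 enterocyte markers 4 rose (14.3%, beside 5.12%; Alpi, Apob, Cyp3a11 and Mep1b), Dpp4 fell (3.57%, beside 4.23%), and 25 differed between backgrounds, with medians of 0.89 without and -0.37 with Atg16l1 deletion. Cyp3a11 and Mep1b passed with a correlation within pairs, and the others did not. The summed level of the markers ranged on the log2 scale from 18.10 to 18.64 in WT, 18.31 to 18.98 in Atg16l1ΔIEC, 19.09 to 19.20 in Rnaseh2bΔIEC and 17.89 to 18.38 in Atg16l1/Rnaseh2bΔIEC organoids. Cyp3a11, a drug-metabolizing enzyme, rose by 2.17 in the first background and had 0.08 in the second. With lane as a covariate these values were 1.05 and 0.63. The part of enterocyte content in the rises of Akp3 and S100g was not tested.

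Among the other lineages, 2 of 16 stem cell markers rose (12.5%, beside 5.12%). These were the RNA-binding protein gene Msi1 (0.40, standard error 0.05, limma adjusted p = 0.00022) and the receptor gene Ephb2 (0.21). Both had all libraries without Rnaseh2b on top, and Msi1 passed with a correlation within pairs. Of the 16 markers, 4 moved the same way, 7 lay below 0 by average effect and 8 differed between backgrounds. Their medians were -0.14 without and 0.28 with Atg16l1 deletion. Of 18 Paneth cell markers 3 rose (Ang4, Defa24 and Defa26), of 14 goblet cell genes 2 rose (Ccl6 and Ccl9), and of 15 fetal-like genes 2 rose (Gja1 and Il33). These are 16.7%, 14.3% and 13.3% of the lists, beside 5.12% of all genes, and none of the 7 passed with a correlation within pairs. Of 22 enteroendocrine genes Gip rose (0.42) and the hormone gene Pyy (-0.45) and the transcription factor gene Pax6 (-0.21) fell, of which Pyy passed with a correlation within pairs. Of 12 tuft cell genes 3 fell, the cytoskeletal Avil (-0.30), Rgs13 (-0.22) and Sh2d6 (-0.19), with a median of -0.25 without and -0.00 with Atg16l1 deletion. All genes gave 4.23% of falls, and with a correlation within pairs none of the 3 passed (adjusted p from 0.21 to 0.36). The defensin and ribonuclease genes Defa24, Defa26 and Ang4 belong to families of near-identical copies, and their values are uncertain to that extent. For Ang4 and Defa24 the rise rested on the background with Atg16l1 deletion (0.63 and 0.88, against 0.07 and 0.01).

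Of the other groups, 20 unfolded protein response genes gave 4 rises (Sdf2l1, Creld2, Calr and Dnajb11) and 2 falls (Ern1 and Xbp1), 28 apoptosis regulators gave 4 rises (Casp6, Mlkl, Cycs and Mcl1) and 3 falls (Bcl2l2, Cflar and Ripk3), and 34 autophagy and lysosome genes gave 2 rises (Atg16l1 and Ctsd) and 1 fall (Nbr1). All genes gave 5.12% of rises and 4.23% of falls, and of these list members Atg16l1 alone passed with a correlation within pairs. Among 21 genes of fatty acid oxidation Acot1 rose. Of 10 epithelial markers Cldn7 fell (-0.13), and of 5 testable stromal and immune genes Pdgfrb fell (-0.22), and with a correlation within pairs Acot1, Cldn7 and Pdgfrb did not pass (adjusted p from 0.24 to 0.29). By limma 0 of 26 hypoxia-response genes and 0 of 24 NRF2 targets were called, and at an unadjusted p under 0.05 1 hypoxia gene was lower, 2 NRF2 targets were higher and 1 was lower. Of the hypoxia genes 25 of 26 had an average effect below 0, with a median of -0.16, but only 4 moved the same way in both backgrounds. Their medians were -0.59 without and 0.28 with Atg16l1 deletion, with 18 of 26 differing between backgrounds.

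**Figure D4:**
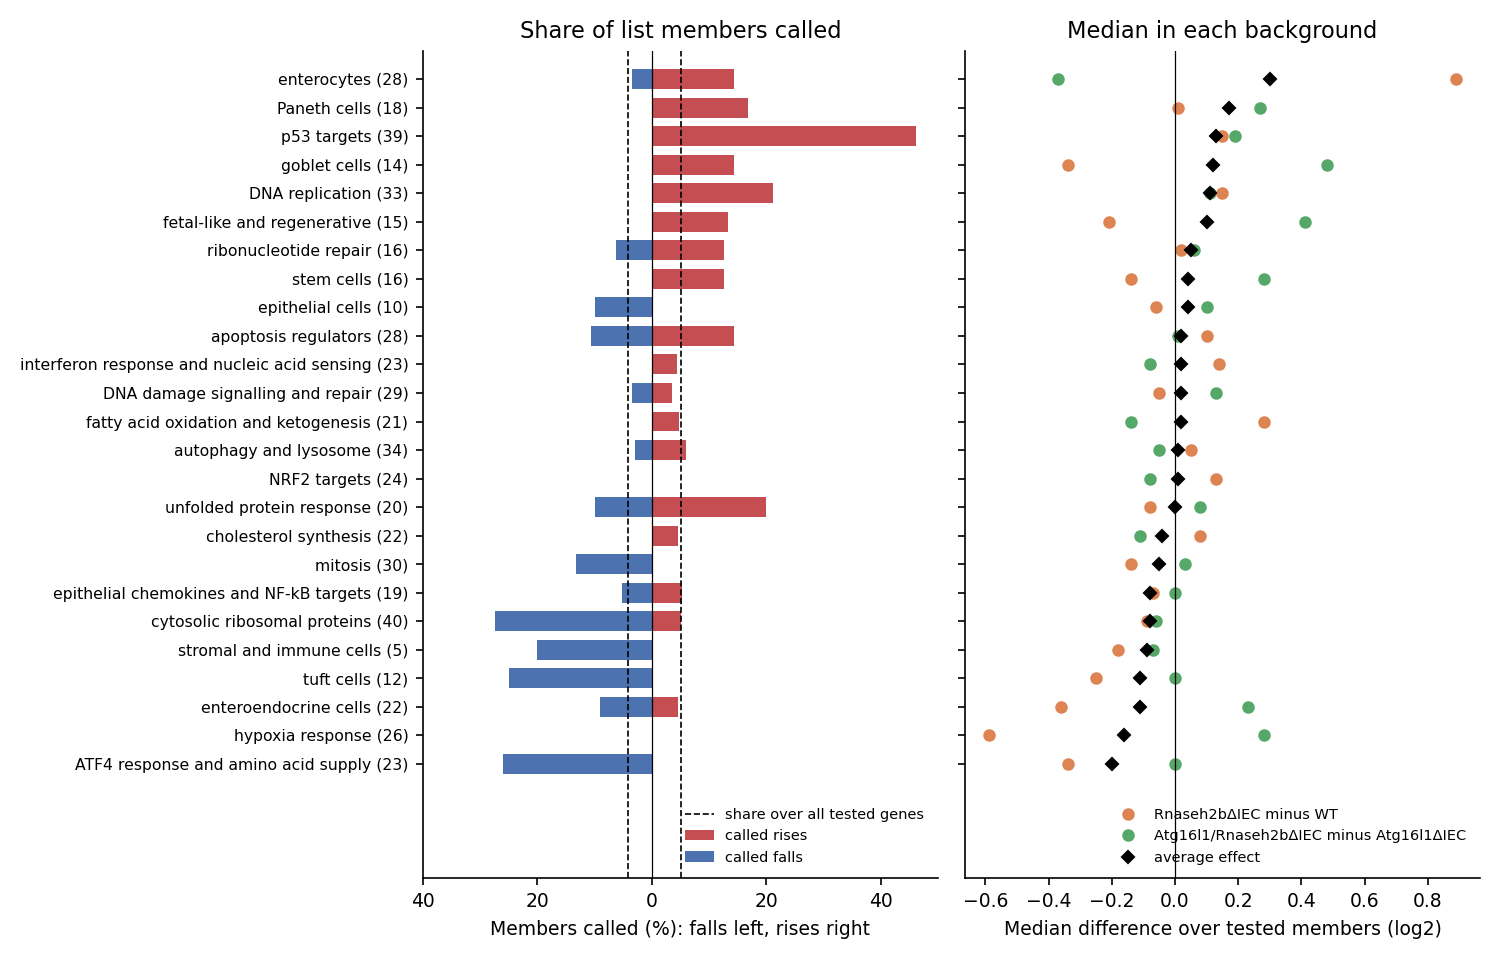
For the 25 gene lists (number of tested genes in parentheses), the left panel gives the percentage of members called as falls (blue, to the left) and rises (red, to the right), with the share over all tested genes as dashed lines at 4.23% and 5.12%; the right panel gives the median log2 difference in each background and of the average effect. The p53 list has the longest red bar, 46.2%, and the medians of the enterocyte and hypoxia lists lie on opposite sides of 0 in the backgrounds.

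The median log2 level of the called genes was 9.81 for rises and 9.82 for falls, beside 9.44 for all tested genes. The median exonic length was 3709 bases for rises, 4926 for falls and 4364 for all. The share called per chromosome ranged from 5.4% on chromosome 18 to 11.3% on chromosome 15. Around the threshold of the test, Hdlbp (-0.08, adjusted p = 0.0498) was just inside and Zxdc (-0.10, adjusted p = 0.0501) just outside, and around the filter on low values, Vwa3b (mean 3.3213, effect -0.06) was just inside and Tmigd1 (mean 3.3189, effect 0.02) just outside.

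**Figure D5:**
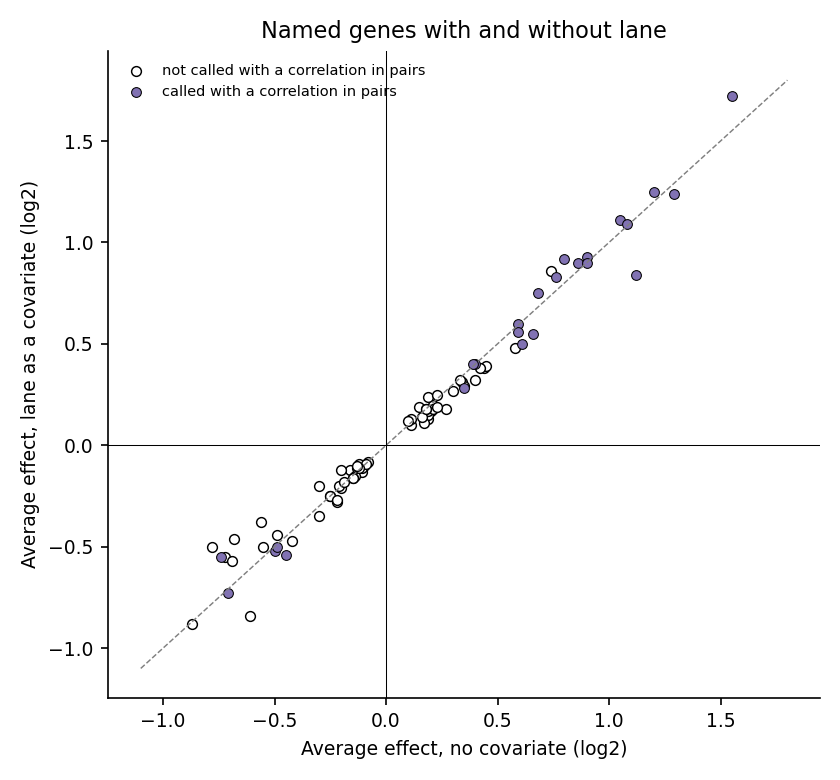
Average effect of the called named genes other than Rnaseh2b without a covariate (x axis, log2) and with lane as a covariate (y axis, log2), with the dashed line marking equal values and filled points marking genes called also with a correlation within culture pairs. All points keep their sign, and those far from the line include Cyp3a11 (1.12 and 0.84), Tifa (-0.61 and -0.84) and Pm20d1 (-0.78 and -0.50).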

How the data were processed

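RNA of 14 organoid libraries was sequenced by the authors with stranded mRNA kits as single reads. Per the methods and processing notes, reads were trimmed with cutadapt, aligned to GRCm38 with TopHat2, counted with HTSeq and analysed with DESeq2, with versions not given in the sources used here. The authors deposited values on a log2 scale whose transformation is not named. The spread of low genes is reduced (median SD 0.004 for means under 0, 0.151 for means of 6 to 7), which understates fold changes at the low end. These values give no read totals, and the depth behind them is unknown. All 14 columns were mapped to samples, and 0 were not. Symbols and coordinates are from GENCODE M21, with 99.7% of identifiers matched, and promoter sequences from RefSeq on GRCm38.p6.

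Deposited log2 values of 12804 genes, those averaging 3.32 or more (10 on the linear scale), were fitted with limma 3.58.1 (R 4.3.3; lmFit, contrasts.fit, eBayes with trend) with 1 mean per genotype and no covariate, and p-values were Benjamini-Hochberg adjusted at 0.05. Nothing states whether libraries came from separate animals, so p-values measure the spread between libraries, which may be technical. Genes were named by rule: the first 12 rises and 12 falls by the smaller absolute background difference, leaving out Rnaseh2b and sex-linked genes, up to 4 called members of each of 25 lists, and the genes the study names. Others, including the p53 list members beyond these, were named after their values were seen. Members, lists and tests were chosen with earlier results of these data known. Within the called genes the shared direction follows from the definition. Code was tested on simulated data. Figures were drawn with matplotlib 3.10.9.

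Alternatives were pseudocounts of 1, 0.5 and 5, no filter, a filter of 50, scaling by the upper quartile or the total, lane, the replicate number as a block, sex, means of culture pairs or a correlation within them, an additive model, tests within each background, and leaving out each library. The sex of each library was inferred from the expression of sex-linked genes. Leaving out both libraries of a pair and the lane 2 values were added after seeing the data. A few results are not reported here.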

Additional observations from a re-analysis of the deposited data

Results flagged for a closer look

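Among the named genes, 255 groups of 4 libraries were searched for a library apart from the other three, and 13 were found. Chance gives about 1 in 20 groups. The value of the outlying library was 6.91 for Mcam in Atg16l1ΔIEC replicate 2, 9.54 for Atg16l1 in WT replicate 2, 11.22 for Rrm2 in WT replicate 1, 6.03 for Defa26 in WT replicate 4 and 6.12 in Atg16l1ΔIEC replicate 2. It was 13.71 for Defa24 in Atg16l1/Rnaseh2bΔIEC replicate 1, 5.83 for Pax6 in Atg16l1/Rnaseh2bΔIEC replicate 2, 4.62 for Sh2d6 in WT replicate 1 and 7.41 for Avil in Atg16l1ΔIEC replicate 2. For Xbp1 it was 13.16 in Atg16l1ΔIEC replicate 4, for Rps19 13.07 and for Rps15 14.06 in WT replicate 4, and for Pdgfrb 5.43 in WT replicate 2.

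For 21 named genes the effect of Rnaseh2b loss differed between the backgrounds by limma's interaction term (adjusted p under 0.05). The effect with Atg16l1 deletion minus that without it was negative for Slc37a2 (-0.90), S100g (-0.55), Myl9 (-0.81), Ccne1 (-0.36), Rrm2 (-0.23), Cmpk2 (-0.34), Dpp4 (-0.32), Cyp3a11 (-2.09), Mep1b (-1.28) and Icam1 (-0.66). It was positive for Rnaseh2b (0.55), Atg16l1 (1.40), Nusap1 (0.25), Prc1 (0.18), Ang4 (0.56), Defa24 (0.87), Pax6 (0.40), Avil (0.58), Aldh1l2 (0.76), Psat1 (0.46) and Nos2 (0.82). Lane enters this difference. With lane as a covariate the effects without and with Atg16l1 deletion were -0.23 and -0.53 for Aldh1l2 and -0.11 and -0.28 for Psat1. For these genes the sign of the difference thus reversed, and the other listed genes kept theirs. For Cyp3a11, which had the largest difference, the effects became 1.05 and 0.63. The cause of these changes was not tested.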

How the results depend on the processing

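The count of 1197 genes stayed within 1.5 times under the pseudocounts, filters, scalings, lane, sex and the replicate block, from 869 to 1554. It moved to 91 with a correlation within pairs (60 rises, 31 falls, 8 p53 targets), to 451 in the additive model (244 and 207), to 421 at unadjusted p in each background (232 and 189) and to 179 at adjusted p in each (93 and 86, 9 p53 targets). Fitting pair means left 0 genes, 0 rises, 0 falls and 0 p53 targets by limma, with 850 genes at an unadjusted p under 0.05 and 3 residual degrees of freedom, and there Rnaseh2b was still at -1.09 (adjusted p = 0.057), so those counts of 0 say nothing about stability. Leaving out single libraries gave 285 (Rnaseh2bΔIEC replicate 1) to 1357 genes, 169 to 736 rises, 116 to 621 falls and 10 to 18 p53 targets; without Rnaseh2bΔIEC replicate 2 there were 451 genes and without Atg16l1ΔIEC replicate 4 763. Leaving out pairs gave 764 genes (431 and 333) without Atg16l1ΔIEC replicates 3 and 4, and 2594 (1353 and 1241, 2 p53 targets falling) without Atg16l1/Rnaseh2bΔIEC replicates 3 and 4. The called genes differing between backgrounds, 343 of 1197, were counted in each setting among the genes called there. There were 75 of 1008 with lane, 31 of 91 with a correlation within pairs and 0 with pair means, where 0 were called. In the additive model there were 84 of 451, with the difference taken from the main fit. Without Atg16l1/Rnaseh2bΔIEC replicates 3 and 4 there were 559 of 2594, and without single libraries 100 to 347. Causes were not tested. With the replicate number as a block 869 genes were called; same-numbered libraries of different genotypes shared only a number (r from -0.414 to 0.458, 7 of 18 over 0.1). Rnaseh2b ranged from -1.14 to -1.03. For the 86 other genes the naming rule selects 2272 of 2830 alternative values kept direction and call, 555 lost the call, and 3 changed sign, all of Trp53 (-0.0034 with lane and without Atg16l1/Rnaseh2bΔIEC replicates 1 and 2, -0.0008 without WT replicates 1 and 2). Lane, Cre and genotype overlap, and depth is unknown.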

Other observations

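Sensors of bacterial products other than Naip5 were also among the called genes. These genes and the clock genes that follow were grouped after their values had been seen. Naip6 had values of 12.93, 12.92, 13.11 and 13.03 in WT, 12.86, 12.80, 12.93 and 12.92 in Atg16l1ΔIEC, 12.23 and 12.36 in Rnaseh2bΔIEC, and 12.27, 12.27, 12.81 and 12.77 in Atg16l1/Rnaseh2bΔIEC organoids. It fell by 0.52 on the log2 scale (standard error 0.09, limma adjusted p = 0.0027), and, as for Naip5, Atg16l1/Rnaseh2bΔIEC replicates 3 and 4 lay nearer to the controls. With lane as a covariate the average effect of Naip6 was -0.39, from -0.18 without and -0.61 with Atg16l1 deletion, beside -0.70 and -0.35 when lane was left out. Naip2, a sensor of bacterial secretion systems, fell by 0.17 (adjusted p = 0.025), while Naip1 rose by 0.54 (adjusted p = 0.045), and Nlrc4, the shared partner of the NAIP proteins, had an average effect of -0.02 (95% confidence interval -0.13 to 0.09). The Naip genes are a cluster of close copies on chromosome 13, between which reads could have been split. Alpk1, the kinase that senses bacterial sugars and signals through TIFA, fell beside Tifa by 0.41 (standard error 0.07, adjusted p = 0.0033), with all 6 libraries without Rnaseh2b below all 8 others. Of 13 such genes 5 fell and 1 rose, beside 4.23% and 5.12% of all genes, and with a correlation within pairs Naip5 and Naip6 alone passed.

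The period genes of the circadian clock were lower. Per3 had values of 9.44, 9.36, 9.21 and 9.16 in WT, 9.27, 9.27, 9.58 and 9.55 in Atg16l1ΔIEC, 8.86 and 9.05 in Rnaseh2bΔIEC, and 8.83, 8.96, 8.89 and 8.98 in Atg16l1/Rnaseh2bΔIEC organoids, and fell by 0.42 (standard error 0.07, adjusted p = 0.0019). Per2 fell by 0.41 (adjusted p = 0.00029), by 0.70 without and 0.12 with Atg16l1 deletion (difference adjusted p = 0.00085), and Per1 by 0.17 (adjusted p = 0.022), which did not pass with a correlation within pairs (adjusted p = 0.23). Among other clock genes, Arntl had an average effect of -0.03 and Clock of -0.05, neither past the threshold. Per2 lies on chromosome 1 within 5 Mb of Atg16l1. The times of harvest are not given in the sources used here.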
